A study of Mus musculus with 8 samples.

Results

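The 8 genes described here form the activating arm of the mammalian circadian clock and the nuclear receptor loop that controls it: Arntl, Clock, Npas2, Nr1d1, Nr1d2, Rora, Bhlhe40 and Bhlhe41. They were taken from the 19532 named genes of the array as those whose probes carry 1 of these symbols alone, which gave 16 probes. Arntl, Npas2, Nr1d2 and Bhlhe40 had 1 probe each, Bhlhe41 had 2, Nr1d1 and Rora had 3 each and Clock had 4. Total RNA was taken from the livers of 4 mice with the mPer2Brdm1 mutation and of 4 wild-type (WT) mice, and each liver was hybridised to its own 1-colour Agilent array with Cy3 label. Both groups were of mixed 129sv and C57Bl/6 background, belonged to 1 cohort and had been starved for 8 h when they were killed. Brdm1 is a germline allele known to lack a stretch of the Per2 coding region. The sample titles call these mice KO. Age, sex and the time of day of sampling are not given in the sources used here, so the circadian phase of the livers is unknown here.

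ARNTL (BMAL1) pairs with CLOCK, or with its relative NPAS2, and this pair binds E-box elements to switch on the Per and Cry genes, Nr1d1, Nr1d2, the D-box factor Dbp and many metabolic genes. The PER and CRY proteins return to inhibit the pair. In a further loop the nuclear receptors REV-ERBα (Nr1d1) and REV-ERBβ (Nr1d2) repress, and RORα (Rora) activates, the response elements of Arntl itself, while DEC1 (Bhlhe40) and DEC2 (Bhlhe41) compete at E-boxes. In mouse liver Arntl RNA is known to cycle nearly opposite to Nr1d1 and Dbp.

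Values below are the authors' normalised log values, in which the median of every probe across the arrays is 0, after a further shift of each array to a common 75th percentile. Zero is therefore near a probe's own median, a value carries no expression level, and members cannot be ranked by abundance. The log base and direction are not stated. Base 2 was assumed and higher was taken as brighter, and all folds and directions below rest on this. Differences are mutant minus WT with the standard error of a limma fit over all rows, and passing means an adjusted p (Benjamini-Hochberg, all 28042 rows) below 0.05. In bulk liver, fewer cells of a type and less RNA per cell cannot be told apart. The labels name 4 different mice per genotype, so p-values set a difference against the spread between animals. With 1 array per liver, that spread includes variation between arrays. The Per2 probes gave opposite differences, -1.70 ± 0.12 for A_51_P282760 and 2.54 ± 0.13 for A_52_P536869, and their places relative to the deletion are not known here. Control features had a median of -0.66 in WT replicate 2 and -0.43 in WT replicate 3, against -0.04 to 0.13 on the other arrays. WT replicate 1 stood apart in another way, lying more than 2 above all other arrays in 507 rows (1.81%), where the other arrays did so in 58 to 147 rows. Of all rows, 6.52% passed as higher and 8.93% as lower in mutants. Among marker lists, 9 of 11 Kupffer cell genes rose and 0 fell by limma (mean of the list 0.44 to 0.72 in mutants and -0.75 to -0.30 in WT), 7 of 9 squamous epithelium genes fell (-1.77 to -1.29 in mutants and 1.25 to 3.84 in WT), 1 of 9 lymphocyte genes rose (-0.23 to 0.42 in mutants and -0.45 to 0.15 in WT) and 1 of 6 hepatocyte genes fell (-0.20 to 0.09 in mutants and -0.09 to 0.11 in WT). Because of the centring no marker can be called absent, and the part of these markers in the results below was not tested.

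Of the 8 genes 4 passed. Arntl and Clock, the DNA-binding partners of the activator, rose, and Nr1d2 and Bhlhe40, genes of its repressors, fell. Over the whole array 15.5% of rows passed by the same rule, 6.52% as higher and 8.93% as lower. The 2 genotypes did not overlap for the same 4 genes, against 24.6% of all rows. The same 4 had an unadjusted p under 0.05, which 30.3% of all rows had. At the level of single probes 6 of the 16 passed, 3 higher and 3 lower, against 16.3% of all probes (6.36% higher and 9.92% lower). The median difference of the 8 genes was -0.21, against 0.08 for all rows. The 8 genes were chosen with earlier results of these data known, so the shares of all rows are no independent comparison.

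**Figure D1:**
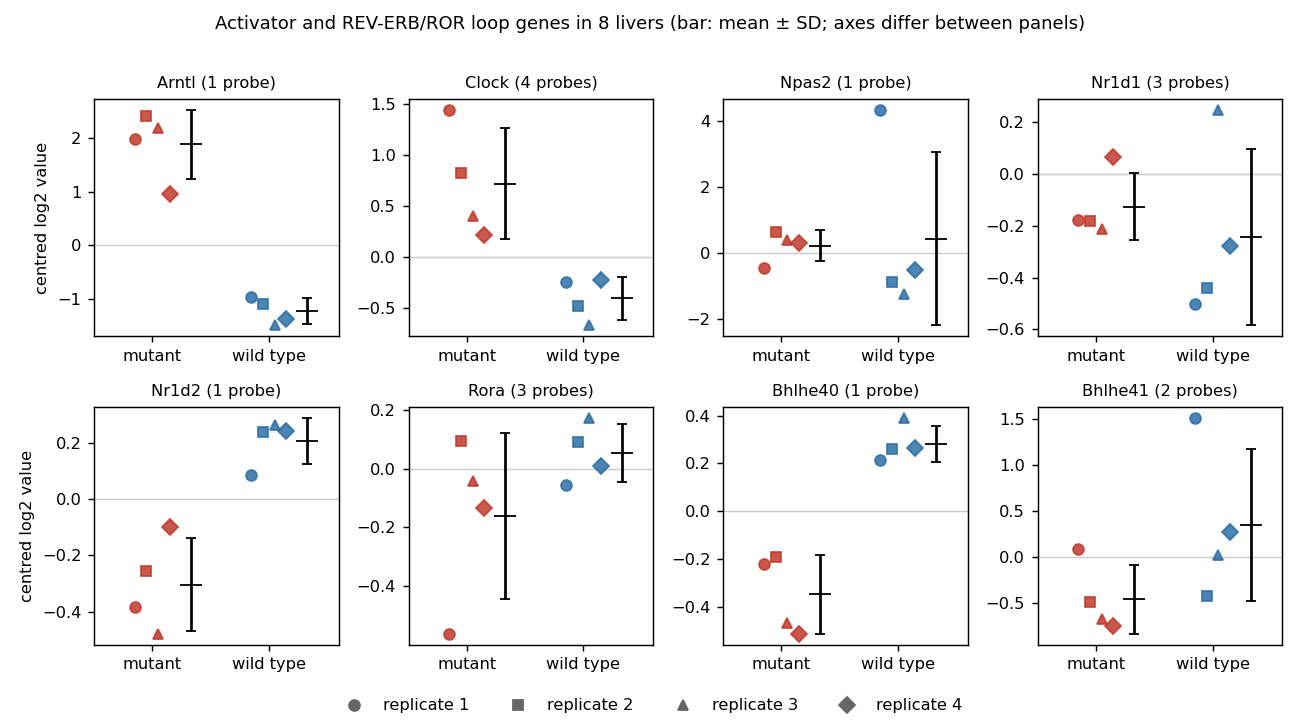
Centred log2 values of the 8 genes in each mouse, with the mean of the probes where a gene has several; symbols mark replicates 1 to 4 of the mutant (left, red) and WT group (right, blue), bars give the mean ± SD, and the vertical axis differs between panels. The genotypes are apart for Arntl, Clock, Nr1d2 and Bhlhe40, and the WT spread of Npas2 comes from 1 mouse at 4.35.

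Arntl had the largest difference of the 8. Its probe A_52_P267651 read 1.98, 2.40, 2.18 and 0.95 in mutant replicates 1 to 4, against -0.96, -1.08, -1.49 and -1.36 in WT replicates 1 to 4. Every mutant lay above every WT mouse, and mutant replicate 4 was the lowest of its group by more than 1. The means were 1.88 ± 0.64 in mutants and -1.22 ± 0.24 in WT (SD, n = 4 each). The difference of 3.10 ± 0.31 is 8.55-fold (limma adjusted p = 0.00117), rank 270 by p among 28042 rows. The exact permutation test gave p = 0.0286 (two-sided), the smallest value that 4 against 4 mice allow. Leaving out each mouse in turn gave 2.92 to 3.41, and the call held each time.

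Arntl lies at chr7:113178471-113314126 (GRCm38.p6, RefSeq), on the plus strand. The stretch of 250 bases before the first of its annotated starts in the table, chr7:113207215-113207464, is shown because Arntl moved most:
Arntl upstream: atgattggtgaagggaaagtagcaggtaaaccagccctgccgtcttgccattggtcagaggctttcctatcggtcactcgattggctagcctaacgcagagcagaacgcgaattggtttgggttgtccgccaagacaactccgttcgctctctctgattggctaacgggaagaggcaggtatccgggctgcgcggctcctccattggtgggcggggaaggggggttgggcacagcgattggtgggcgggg
Promoter windows of 300 bases (250 before and 50 after a start, RefSeq, GRCm38.p6) were given for 7 of the 8 genes, 10 windows in all, and were searched on both strands for 6 motifs. These were the E-box CACGTG, its variant CACGTT, the core of the REV-ERB/ROR element as TAGGTCA or TGGGTCA, and the D-box as TTATGTAA or TTACGTAA. No stretch of letters can match more than 1 of them. A match was found in 3 genes, and 30 bases around each are shown 5′ to 3′ on the gene's strand with the match in capitals:
Arntl REV-ERB/ROR core: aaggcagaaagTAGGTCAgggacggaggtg
Nr1d1 E-box variant, on the opposite strand: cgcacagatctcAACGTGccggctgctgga
Bhlhe41 E-box: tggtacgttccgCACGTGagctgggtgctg
The 30 bases shown for Arntl are chr7:113207530-113207559 (plus strand), and the match within them begins at base 31 after the other annotated start. The window at the first Arntl start, which holds the 250 bases shown above, had 0 matches. The core TAGGTCA is present in 2.61% of all 32851 windows. For Nr1d1 the 30 bases are chr11:98775388-98775417 (minus strand). Their match begins 28 bases before the start, and CACGTT is in 4.68% of windows. For Bhlhe41 the 30 bases are chr6:145865556-145865585 (minus strand). Their match begins 153 bases before the start, and CACGTG is in 7.15% of windows. TGGGTCA, TTATGTAA and TTACGTAA were in 3.98%, 0.938% and 0.119% of windows and in none of these 10. A match describes the letters of the window and is not shown to be a bound site.

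Clock (chr5:76209868-76305603), the partner of ARNTL, rose with it but by less. In mutant replicates 1 to 4 the mean of its 4 probes was 1.44, 0.82, 0.40 and 0.22, against -0.25, -0.48, -0.67 and -0.23 in the WT mice, replicates 1 to 4. The groups did not overlap, with the lowest mutant 0.22 and the highest WT mouse -0.23. The difference was 1.12 ± 0.27 (2.18-fold, limma adjusted p = 0.0285), with means of 0.72 ± 0.54 in mutants and -0.41 ± 0.21 in WT (SD, n = 4 each). All 4 probes were higher in mutants, and A_52_P334670 and A_52_P334677 passed alone, at 1.20 ± 0.21 and 1.22 ± 0.25 (limma adjusted p = 0.00867 and 0.0148). Probe A_52_P279391, designed on another transcript record (AK030352), differed by 0.52 ± 0.19 and A_52_P161365 by 1.54 ± 0.70, and neither passed (limma adjusted p = 0.106 and 0.178). Probe A_52_P161365 read 3.14 in mutant replicate 1 and 0.34, 0.02 and 0.31 in the other mutants, so that 1 mouse sets its mean. The call for Clock was lost without mutant replicate 2 or without WT replicate 2, 3 or 4 (limma adjusted p = 0.0560 to 0.0776). The 2 probes that passed alone lost their calls in none of these 8 fits, but both lost them without WT replicates 2 and 3 together (limma adjusted p = 0.0752 and 0.0975).

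Npas2 (chr1:39193702-39363240), which can take the place of CLOCK, did not pass, and its estimate was set by 1 animal. Its probe A_52_P534749 read -0.44, 0.63, 0.41 and 0.30 in mutant replicates 1 to 4, against 4.35, -0.87, -1.23 and -0.51 in WT replicates 1 to 4. WT replicate 1 lay 4.87 above the next WT mouse, while the other WT mice were below all 4 mutants. The difference was -0.21 ± 1.17 (limma adjusted p = 0.910), with a 95% interval of -2.93 to 2.51. Its spread within genotypes was above that of 99.0% of rows. Without WT replicate 1 the WT mean was -0.87 ± 0.36 (SD, n = 3) and the difference was 1.10 (limma adjusted p = 0.0529), so the sign turned but the call was not reached. The part of that array's 507 raised rows in this value was not tested.

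Nr1d1, the gene of the repressor REV-ERBα, gave no single answer because its probes moved in opposite directions. Probe A_51_P223776 read -0.90, -0.79, -0.56 and -0.29 in mutant replicates 1 to 4, against 0.28, 0.29, 0.69 and 0.88 in WT replicates 1 to 4, without overlap. It fell by 1.17 ± 0.19 on the log2 scale, which is 2.25-fold lower in mutants (limma adjusted p = 0.00693), and this call held under all 15 alternatives. Probe A_52_P130952 read 0.28, 0.05, 0.02 and 0.30 in mutants and -0.71, -0.53, -0.004 and -0.19 in WT, also without overlap, but higher in mutants. Its difference of 0.52 ± 0.17 did not pass (limma adjusted p = 0.0861). Probe A_52_P130961 was 0.09, 0.20, -0.09 and 0.19 in mutants and -1.09, -1.09, 0.06 and -1.52 in WT, where WT replicate 3 alone reached the mutant values. Its difference of 1.01 ± 0.31 did not pass with all mice (limma adjusted p = 0.0688) and passed without WT replicate 3 (limma adjusted p = 0.00520).

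The mean of the 3 Nr1d1 probes, 0.12 ± 0.18 (limma adjusted p = 0.659, 95% interval -0.30 to 0.53), stands for none of them. Their differences spanned 2.18, a wider span than in 96.0% of the 2077 genes with 3 probes. Opposite signs as such were common, in 55.6% of those genes. Per mouse, A_51_P223776 minus A_52_P130952 was -0.80 in mutants and 0.89 in WT on average, and A_51_P223776 minus A_52_P130961 was -0.73 in mutants and 1.44 in WT. Both contrasts gave p = 0.0286 by the exact permutation test and 0.0743 after adjustment over the 13 probe pairs of the 8 genes. As 0.0286 is the smallest p of this test, the adjusted value is set by the number of pairs at that limit, which was 5, and says little about these probes. All 3 probes are annotated to the same record (NM_145434), and their positions in it are not known here.

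Nr1d1 (chr11:98767932-98775377) shares 1075 bases at its lower end with Thra (chr11:98740776-98769006), the thyroid hormone receptor α gene, which is known to be transcribed from the opposite strand. Probe A_52_P666930 of Thra fell by 0.99 ± 0.15 and A_51_P475995 by 0.71 ± 0.16 (limma adjusted p = 0.00501 and 0.0207). The second of these calls was lost in 7 of 15 alternatives. For A_52_P666930 the values were -0.96, -0.46, -0.37 and -0.41 in mutant replicates 1 to 4, against 0.39, 0.35, 0.50 and 0.51 in WT. Both Thra probes thus moved in the direction of A_51_P223776 and against the other two Nr1d1 probes. Whether any of these probes lies in the shared bases is not known here.

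**Figure D2:**
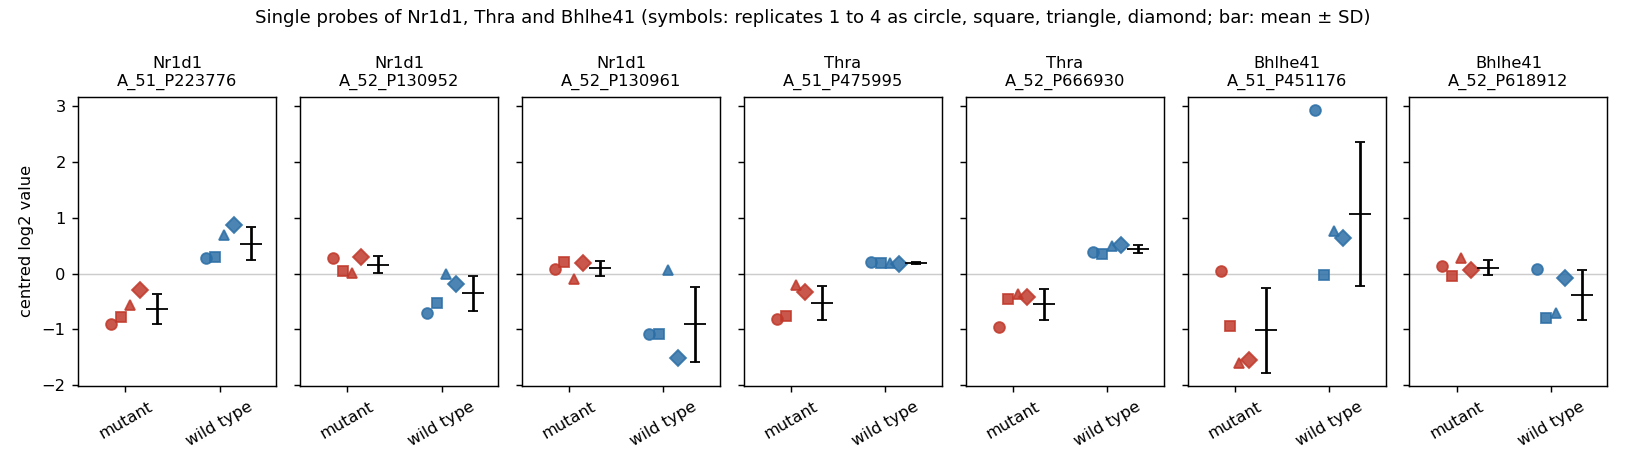
Centred log2 values of each mouse for the 3 probes of Nr1d1, the 2 of Thra and the 2 of Bhlhe41, on 1 common axis, with mutants left in red and WT right in blue and the mean ± SD as bars. One Nr1d1 probe and both Thra probes are lower in mutants, the other two Nr1d1 probes are higher on average, and the Bhlhe41 probes differ in direction.

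Nr1d2 (chr14:18204056-18239106), the gene of REV-ERBβ, fell slightly. Its probe A_52_P303891 read -0.38, -0.25, -0.48 and -0.10 in mutant replicates 1 to 4, against 0.09, 0.24, 0.26 and 0.24 in WT replicates 1 to 4. The groups were apart by a narrow gap, with mutant replicate 4 and WT replicate 1 nearest to each other. The difference was -0.51 ± 0.12 (1.43-fold lower, limma adjusted p = 0.0227), and the means were -0.30 ± 0.16 in mutants and 0.21 ± 0.08 in WT (SD, n = 4 each). Of the 4 calls this one was lost most often when a mouse was left out. Omitting 1 mouse ended it 6 of 8 times, the exceptions being mutant replicate 4 and WT replicate 1 (limma adjusted p = 0.0523 to 0.0647 where lost). With the values as deposited the difference was -0.39 and did not pass (limma adjusted p = 0.0588), a scaling in which the median difference of all rows was 0.20 instead of 0.08. Relative to the median of all rows the difference was -0.59.

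Rora (chr9:68653404-69388246), the gene of the activator RORα, did not differ beyond the spread between mice. The mean of its 3 probes was -0.56, 0.09, -0.04 and -0.13 in mutant replicates 1 to 4, against -0.06, 0.09, 0.17 and 0.01 in WT replicates 1 to 4, and the groups overlapped. The difference was -0.22 ± 0.16 (limma adjusted p = 0.327), with a 95% interval of -0.58 to 0.14. Mutant replicate 1 was the lowest of all 8 mice, and without it the difference was -0.08. The 3 probes gave -0.29, -0.23 and -0.13, a span of 0.16 that was exceeded by most genes with 3 probes, whose median span was 0.61. Changes of more than 0.58 downward or 0.14 upward lie outside the interval.

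Bhlhe40 (chr6:108660629-108666925), the gene of DEC1, fell in every mutant. Probe A_51_P272553 read -0.22, -0.19, -0.47 and -0.51 in mutant replicates 1 to 4, against 0.21, 0.26, 0.39 and 0.26 in WT replicates 1 to 4, without overlap. The difference was -0.63 ± 0.11 (1.545-fold lower, limma adjusted p = 0.0102), with means of -0.35 ± 0.16 in mutants and 0.28 ± 0.08 in WT (SD, n = 4 each). The call held without any one mouse (limma adjusted p = 0.0191 to 0.0340) and was lost without WT replicates 2 and 3 together (-0.58, limma adjusted p = 0.0777).

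Bhlhe41 (chr6:145858243-145865420), the gene of DEC2, had probes that split like those of Nr1d1. Probe A_51_P451176 read 0.04, -0.94, -1.61 and -1.56 in mutant replicates 1 to 4, against 2.93, -0.03, 0.76 and 0.63 in WT replicates 1 to 4. Here WT replicate 1 was the highest, as for Npas2, and mutant replicate 1 overlapped the lowest WT mouse. The difference of -2.09 ± 0.67 did not pass (limma adjusted p = 0.0733), and Bhlhe41 probe A_51_P451176 passed with quantile normalisation (limma adjusted p = 0.0249) and with array weights (limma adjusted p = 0.0406), and also with the replicate number as a block (limma adjusted p = 0.0397), but in none of the other 12 alternatives. The other probe, A_52_P618912, was 0.13, -0.04, 0.27 and 0.06 in mutants and 0.09, -0.80, -0.71 and -0.09 in WT, a difference of 0.48 ± 0.22 (limma adjusted p = 0.179). Their differences lay 2.57 apart, more than in 98.6% of the 5405 genes with 2 probes, of which 33.9% had opposite signs. The contrast between the probes had an exact permutation p of 0.0286 and an adjusted p of 0.0743 over the 13 pairs, under the same limit. Averaged, Bhlhe41 differed by -0.80 ± 0.41 (limma adjusted p = 0.203, 95% interval -1.75 to 0.14). For Bhlhe41 this value was -0.41 without WT replicate 1 and -1.35 without WT replicates 2 and 3, and it passed in neither case.

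**Figure D3:**
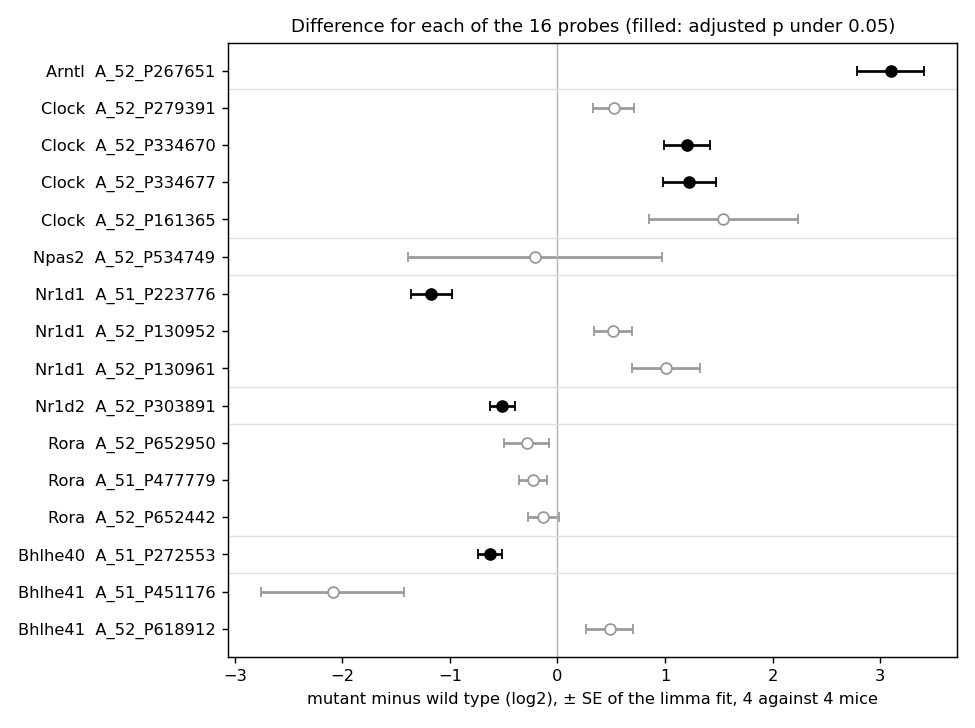
Mutant minus WT difference (log2) of each of the 16 probes with the standard error of the limma fit over 4 against 4 mice; filled symbols passed at an adjusted p under 0.05. Probes of Clock and of Rora lie on 1 side of zero, while those of Nr1d1 and of Bhlhe41 lie on both.

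The 3 pairs of related genes were compared within each mouse, which removes any shift of a whole array. Nr1d1 minus Nr1d2 was 0.20, 0.07, 0.27 and 0.16 in mutant replicates 1 to 4, against -0.59, -0.68, -0.02 and -0.52 in WT replicates 1 to 4, a difference of 0.63. The exact permutation p was 0.0286, or 0.0857 adjusted over the 3 pairs, and it did not pass. It rests on the mean of Nr1d1 probes that disagree. For Clock minus Npas2 the difference was 1.33 (means 0.49 ± 0.93 in mutants and -0.84 ± 2.51 in WT, SD, n = 4 each), with an exact permutation p of 0.571 and 0.83 after adjustment. Without WT replicate 1 it was 0.08. Bhlhe40 minus Bhlhe41 gave 0.17 (means 0.11 ± 0.28 in mutants and -0.07 ± 0.87 in WT, SD, n = 4 each), with an exact permutation p of 0.83 before and after adjustment. A single pair at the smallest p of this test, 0.0286, can only give 0.0857 after adjustment over 3, so for Nr1d1 and Nr1d2 the design did not allow a pass unless another pair was as low.

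Genes around the loop were taken from 6 lists, and their counts stand against 15.5% of all rows that passed (6.52% higher and 8.93% lower). The lists were chosen with earlier results of these data known, so these shares are no independent comparison for the counts. Of 10 feedback repressors and D-box factors 3 rose and 5 fell by limma, with a median difference of -0.40 against 0.08 for all rows. The smallest p-values were those of Ciart, a repressor of the activator (-2.22 ± 0.24), Dbp, a D-box activator (-2.45 ± 0.30), and Nfil3, which represses the same elements (1.07 ± 0.14), with limma adjusted p = 0.00145, 0.00233 and 0.00273. Without WT replicates 2 and 3 the count of 8 was 4. Per2, the mutated gene, is counted among the 3 that rose. Its value there is only the mean of its opposite probes (0.42 ± 0.11, limma adjusted p = 0.0380).

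Among E-box targets outside the loop 5 of 11 fell and 1 rose, with a median of -0.29. Wee1, a kinase gene of the cell cycle, fell by 1.54 ± 0.23, and the uridine phosphorylase gene Upp2 fell by 1.22 ± 0.17. Alas1, the rate-limiting enzyme gene of heme synthesis, whose product is the ligand of the REV-ERB proteins, fell by 1.12 ± 0.20. Usp2, a deubiquitinase gene, fell by 0.87 ± 0.14 and the glycogen synthase gene Gys2 by 0.87 ± 0.10, while the tetraspanin gene Tspan4 rose by 0.63 ± 0.13. These 6 had limma adjusted p-values from 0.00174 to 0.0139. Without WT replicates 2 and 3 only 2 of them passed.

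Of 12 REV-ERB and ROR targets outside the loop 4 rose and 2 fell, with a median of 0.54. Insig2, which restrains SREBP processing and is known to be repressed by REV-ERBα, rose by 1.83 ± 0.20 (limma adjusted p = 0.00144). The fasting hormone gene Fgf21 rose by 2.02 ± 0.50, the glucose-6-phosphatase gene G6pc by 0.79 ± 0.19 and the vasopressin receptor gene Avpr1a by 0.47 ± 0.13. The fatty acid transporter gene Cd36 fell by 1.95 ± 0.25 and the apolipoprotein gene Apoc3 by 0.45 ± 0.11. These last 5 had limma adjusted p-values from 0.00283 to 0.0475. Elovl3, a fatty acid elongase gene, differed by 2.11 ± 0.64 and did not pass (limma adjusted p = 0.0656). Leaving out 1 mouse changed the count of 6 to between 2 and 7, and without mutant replicate 2 or 3 or WT replicate 2 or 3 it was 2.

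Of the 14 measured cofactors of these proteins 2 rose and 2 fell, with a median difference of 0.0019, where 15.5% of all rows passed. Hdac3, the deacetylase through which REV-ERB proteins silence genes, fell by 0.63 ± 0.10, and Tbl1x, a subunit of the same corepressor complex, fell by 0.55 ± 0.11. The acetyltransferase gene Crebbp rose by 0.78 ± 0.15, and Id3, an inhibitor of basic helix-loop-helix proteins, rose by 0.60 ± 0.17. These 4 had limma adjusted p-values from 0.00670 to 0.0473. The call of Id3 was lost without any one of 6 mice, and without WT replicates 2 and 3 together 1 of the 4 calls was left.

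None of the 7 measured relatives of the members passed by limma, and 2 had an unadjusted p under 0.05, which 30.3% of all rows had. Ahr (-0.42 ± 0.13), Epas1 (-0.43 ± 0.16) and Arntl2 (0.66 ± 0.29) had the smallest p-values (limma adjusted p = 0.0593 to 0.173). Ahr passed with array weights and without WT replicate 1 (limma adjusted p = 0.0402 and 0.0421). None of the 12 kinases and ligases that act on BMAL1, CLOCK or REV-ERB passed either, and 1 had an unadjusted p under 0.05, against the same 30.3%. Csnk1d (0.28 ± 0.09), Fbxl21 (-0.25 ± 0.14) and Csnk1e (0.25 ± 0.15) had the smallest p-values there (limma adjusted p = 0.0875 to 0.254), and the differences of all 12 lay between -0.25 and 0.28. Csnk1d passed with the values as deposited (limma adjusted p = 0.0255).

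**Figure D4:**
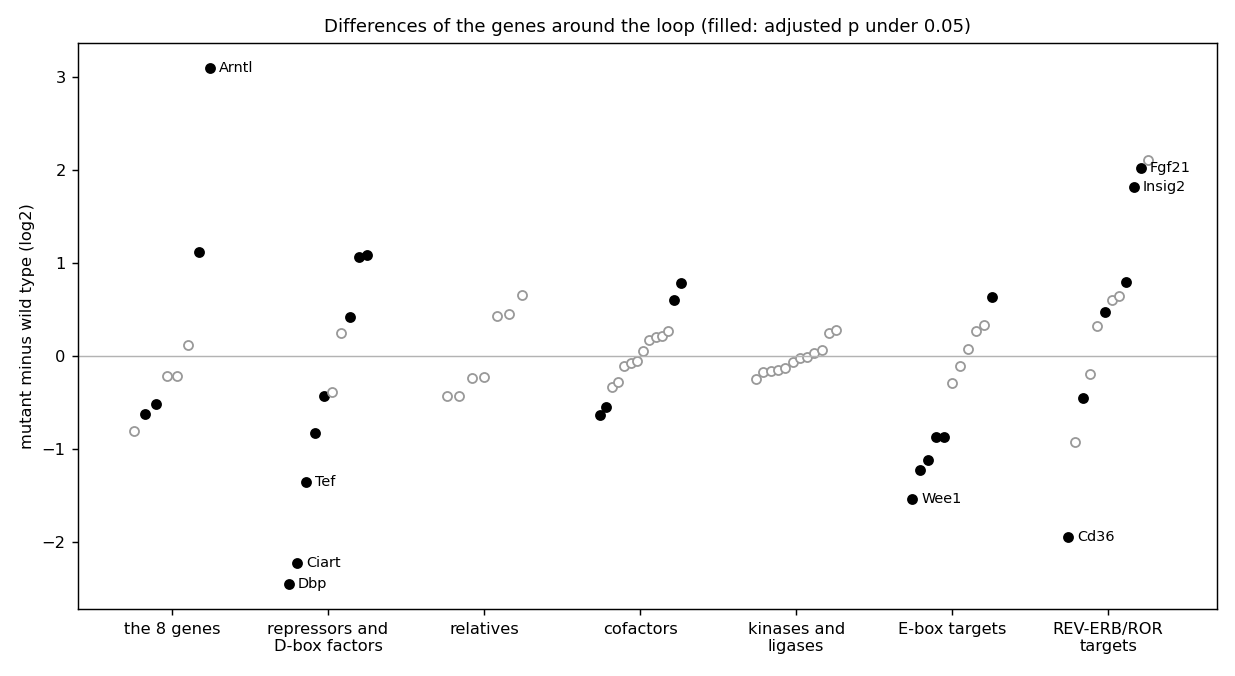
Mutant minus WT difference (log2) of every measured gene in the 8-gene set and in 6 lists of genes around it, 1 symbol per gene and sorted within each column; filled symbols passed at an adjusted p under 0.05. Arntl at 3.10 is the highest point and Dbp at -2.45 the lowest, and no gene of the relatives or of the kinases and ligases passed.

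The profiles most like those of single members were found by the root mean square difference over the 8 arrays, after each gene was centred on its mean. For Arntl, whose own root mean square was 1.6, they were Lrfn3 (0.32), E2f8 (0.39) and Prss27 (0.40). Npas2 (1.64) was nearest to Tsga13 (0.22), Snap25 (0.29) and Ckap2l (0.31), whose values in WT replicate 1 were 4.52, 4.55 and 4.48. These 3 genes share with Npas2 a single raised array and no difference between genotypes that passed, which follows from choosing them by likeness to its profile. For Clock (0.67) the nearest were Med13 (0.10), St8sia3 (0.13) and Hilpda (0.17), for Nr1d2 (0.28) Zfp27 (0.05), Mbl2 (0.05) and Keap1 (0.06), and for Bhlhe40 (0.33) Zbtb8os (0.04), Akr1c19 (0.06) and Psmd2 (0.07).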

How the data were processed

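Liver RNA of 8 mice was measured on 1-colour Agilent arrays, per the labels' protocols. The deposited table holds 41252 probes as log2 values, normalised by the authors by a method that is not stated; every probe's median over the 8 columns is 0. The log base and direction are not stated: base 2 was taken and higher was taken as brighter. The 8 columns were grouped by genotype label, and 0 were unused.

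Control features (78) were set aside. As 75th percentiles differed by more than 0.1, arrays were shifted to a common one. Probes with 1 symbol (32664; 45 had several and 8465 none) were averaged per gene, giving 28042 rows. Limma 3.58.1 in R 4.3.3 (lmFit, eBayes, two-sided) was adjusted by Benjamini-Hochberg over all rows, and single probes over 41174. The study selects probes at a p under 0.05 without naming a test; 30.3% of rows and 4 of the 8 genes met this by limma. Within-mouse contrasts used exact two-sided permutation tests. No filter on low values was applied, since signals are not in the table. The number of arrays limits the precision. Positions and promoters are RefSeq's for GRCm38.p6, used for names and position only. Figures used matplotlib 3.10.9 under Python 3.11.15.

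All members are named with each probe. Of each list, every passing gene is named, or the 3 with the smallest p where more than 6 or fewer than 3 passed; the 3 most similar genes are named for Arntl, Npas2 and passing members. Some listed genes were not analysed here. Members and lists were chosen with earlier results of these data known. The 13 probe contrasts and Thra were added after probe values were seen. Alternatives were 2 other scalings, no scaling, robust variance, array weights, a replicate block, each mouse left out, WT replicates 2 and 3 left out, and single probes. Same-numbered mice did not deviate together (correlations -0.10 to 0.10), so the numbers were not used as pairs. On simulated data with 28042 rows, limma recovered 34 of 100 genes given a log2 change of 1 and 78 of 100 given a log2 change of 2. It made 7 false calls among the unchanged rows. Only these genes were changed, a far smaller share than the 15.5% of real rows that passed. The adjustment was therefore stricter there, and the recovery need not hold for the real data.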

Additional observations from a re-analysis of the deposited data

Results flagged for a closer look

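In 90 groups of 4 mice, 7 had an end value far from its nearest neighbour relative to the group's range (Dixon's criterion), where chance gives about 1 in 20. In the mutants these were Nr1d1 in replicate 4 (0.0656, nearest -0.18), Clock probe A_52_P161365 in replicate 1 (3.14, nearest 0.34), Apoc3 in replicate 1 (-0.0905, nearest -0.33) and Wee1 in replicate 1 (-1.23, nearest -0.56). In WT they were Npas2 in replicate 1 (4.35, nearest -0.51), Nr1d2 in replicate 1 (0.0868, nearest 0.24) and Wee1 in replicate 4 (0.39, nearest 0.96).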

How the results depend on the processing

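Arntl passed under all 15 alternatives. Directions of the 8 genes held throughout except for Npas2, which was 0.30 with quantile normalisation, 0.33 with array weights and -0.76 to 1.10 with 1 mouse left out. Of 8 genes, 4 passed with all mice, 2 to 4 with 1 mouse left out, 3 as deposited and 1 (Arntl) without WT replicates 2 and 3, where all rows changed numbered 1766 against 4333. That setting also gave 4 repressors and D-box factors, 1 cofactor, 2 E-box targets and 2 REV-ERB and ROR targets. Leaving out 1 mouse gave 2884 to 3696 rows, 4 to 6 repressors and D-box factors, 0 to 1 relatives and 2 to 7 REV-ERB and ROR targets. As deposited, 61.4% of passing rows were higher, against 42.2% after scaling, and 1 kinase or ligase passed; with array weights 1 relative passed. Single probes gave 6702 of 41174. With the replicate number as a block, 1 of the 8 genes (Arntl) and 2030 rows passed, with 3 repressors and D-box factors, 0 cofactors (4 at an unadjusted p under 0.05 by limma) and 2 REV-ERB and ROR targets; the labels do not pair these mice. Contrasts that had not passed turned sign as follows. Bhlhe40 minus Bhlhe41 (0.17) was -0.0296 with quantile normalisation, -0.24 to 0.42 with 1 mouse left out (lowest without WT replicate 1) and 0.76 without WT replicates 2 and 3. Rora: A_52_P652950 minus A_51_P477779 was 0.0024 with quantile normalisation and -0.15 to 0.0301 with 1 mouse left out. With 1 mouse left out, Clock: A_52_P334670 minus A_52_P334677 was -0.0772 to 0.0478, Clock: A_52_P334670 minus A_52_P161365 was -0.66 to 0.30 and Clock: A_52_P334677 minus A_52_P161365 was -0.71 to 0.38. No contrast passed after adjustment with any 1 mouse left out. A single contrast at the smallest p of the exact test could not pass there, so this says little about the contrasts. As 4 pairs, or without 2 mice, the exact tests cannot reach 0.05, so only values were compared there. Signal over background is not in the table.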
